A study of Mus musculus with 12 samples.

Results

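The 10 genes described here make up the Myc, Max and Mxd network: Myc, Mycn, Mycl, Max, Mxd1, Mxd3, Mxd4, Mxi1, Mnt and Mga. They were taken by symbol from the deposited table of raw counts, in which they are 10 of 39017 genes, and all 10 passed the filter on low counts that left 16024 genes for testing. RNA was sequenced from sorted bone marrow LSK cells (Lin- Sca1+ cKit+), the compartment of mouse haematopoietic stem cells and multipotent progenitors, in 12 libraries that fall into 4 groups of 3. All mice were of the C57BL/6J; Sv/129 background and received poly(I:C) at 2 ug/g. NICD_TCFKO libraries came from R26 N1IC lox/+ Tcf7 lox/lox Mx1Cre mice, in which Cre switches on the intracellular domain of Notch1 from the R26 locus and removes Tcf7. NICD_TCFWT libraries came from R26 N1IC lox/+ Mx1Cre mice, NOTCHWT_TCFKO libraries from Tcf7 lox/lox Mx1Cre mice, and NOTCHWT_TCFWT libraries from animals labelled wild type that were given the same injection. Mx1Cre is driven by an interferon-responsive promoter and acts in many haematopoietic and other cells, so deletion is not restricted to LSK cells. Sorting of both NICD groups also required CD45.2 and eGFP, so that the effect of this gate and that of N1IC cannot be told apart. The labels give no ages and do not tell if each replicate is its own animal, so p-values measure the spread between these samples, which may be technical.

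Myc proteins are transcription factors of the basic helix-loop-helix leucine zipper class that bind E-box DNA only as heterodimers with Max. Mxd proteins, Mxi1, Mnt and Mga also pair with Max and compete with Myc at E-boxes, mostly as repressors that recruit Sin3 and histone deacetylases. In haematopoietic stem cells Myc and Mycn are known to act partly redundantly in survival and proliferation, Myc is a direct target of Notch1 in T-cell leukaemia, and it is a classical target of TCF factors downstream of Wnt in the intestine.

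Promoter windows are printed for Mycn, the member with the smallest adjusted p across the 4 groups, for Mycl, the member with the lowest counts, and for Max, the shared partner. Each runs from 250 bases before to 50 bases after a RefSeq start site (GRCm38.p6), is read 5′ to 3′ on the gene's strand, and has motif matches in capitals. The windows lie at chr12:12941787-12942086 on the minus strand (Mycn), chr4:122995681-122995980 on the plus strand (Mycl) and chr12:76962199-76962498 on the minus strand (Max).
Mycn: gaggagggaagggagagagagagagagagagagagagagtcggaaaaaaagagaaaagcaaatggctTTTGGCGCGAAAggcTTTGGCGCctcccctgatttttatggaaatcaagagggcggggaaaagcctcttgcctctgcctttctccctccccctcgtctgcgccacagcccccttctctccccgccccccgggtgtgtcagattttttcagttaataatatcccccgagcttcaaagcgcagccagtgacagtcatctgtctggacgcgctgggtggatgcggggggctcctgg
Mycl: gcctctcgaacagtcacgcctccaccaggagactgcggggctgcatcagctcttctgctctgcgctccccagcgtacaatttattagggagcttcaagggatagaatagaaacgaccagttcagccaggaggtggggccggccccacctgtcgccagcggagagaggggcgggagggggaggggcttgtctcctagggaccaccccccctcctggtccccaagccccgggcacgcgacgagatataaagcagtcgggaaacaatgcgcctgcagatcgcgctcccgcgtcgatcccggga
Max: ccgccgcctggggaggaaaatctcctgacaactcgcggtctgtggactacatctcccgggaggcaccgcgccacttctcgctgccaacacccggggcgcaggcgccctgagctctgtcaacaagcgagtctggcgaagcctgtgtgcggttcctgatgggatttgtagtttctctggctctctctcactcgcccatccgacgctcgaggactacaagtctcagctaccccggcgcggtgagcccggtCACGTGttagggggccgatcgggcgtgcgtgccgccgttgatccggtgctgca
The motifs searched on both strands were the E-box CACGTG bound by Myc and Max, the E2F motif TTTNGCGC, the RBPJ motif TGGGAA used by Notch, and the TCF/LEF motif ATCAAAG. The capitals in the Mycn window are 3 matches to the E2F motif, of which 2 overlap on opposite strands; 1.4% of 32851 start sites hold this motif in the same window. The capitals in the Max window are 1 E-box, a motif found in 7.2% of start sites. None of the 4 motifs was found in the Mycl window. No window was at hand for Myc, so its promoter was not searched for any of the 4 motifs. Among the other members with a window, Mxd4 and Mnt each held 1 E-box. Mxd3 and Mxi1 held the RBPJ motif, which 25.6% of start sites hold. None of these members held the TCF/LEF motif, which 3.7% hold. Windows for 9 of the 10 members, all but Myc, were matched, and a match is a description of letters, not of binding.

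Total counts were 30453271 to 43790674 per library. The genes named in the labels go against them in part. Tcf7 averaged 603 ± 300 normalised read counts scaled to a common library size (CPM) in NICD_TCFKO, 5.5 ± 1.11 in NICD_TCFWT, 1.28 ± 1.31 in NOTCHWT_TCFKO and 14.8 ± 4.54 in NOTCHWT_TCFWT (SD, n = 3 each), so that it was highest in a group labelled as lacking it. Notch1 averaged 774 ± 160 CPM in NICD_TCFKO, 180 ± 19.9 in NICD_TCFWT, 149 ± 46.7 in NOTCHWT_TCFKO and 571 ± 44.4 in NOTCHWT_TCFWT. Counts are per gene, and the exons removed from Tcf7 are not given in the sources used here. The 8 Notch response genes, summed further on, also go against the labels, being lower in NICD_TCFWT than in NOTCHWT_TCFWT. The sample titles also hold a second name, RNIC-CTRL for NICD_TCFWT, RNIC-Tg for NICD_TCFKO, Tcf7-Tg for NOTCHWT_TCFKO and RAD for NOTCHWT_TCFWT. These second names were not used to assign groups. Whether groups were exchanged was not tested. Groups are therefore named as labelled throughout, and every direction below is one between libraries labelled in this way. All 8 LSK markers were counted, and their summed level was 1492 to 2093 CPM in NICD_TCFKO, 3038 to 3524 in NICD_TCFWT, 2337 to 3830 in NOTCHWT_TCFKO and 1823 to 2171 in NOTCHWT_TCFWT.

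Myc and Mycn, the main paralogues of the Myc family in these cells, moved in opposite directions across the groups. Libraries labelled NICD_TCFWT had more Myc and less Mycn than NOTCHWT_TCFWT, and so did NOTCHWT_TCFKO. NICD_TCFKO had more Mycn and less Myc than either group that shares a label with it, NICD_TCFWT and NOTCHWT_TCFKO. Of the other 8 members, Mycl and Mxd4 each passed the test in 1 pair of groups and 6 in none.

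**Figure D1:**
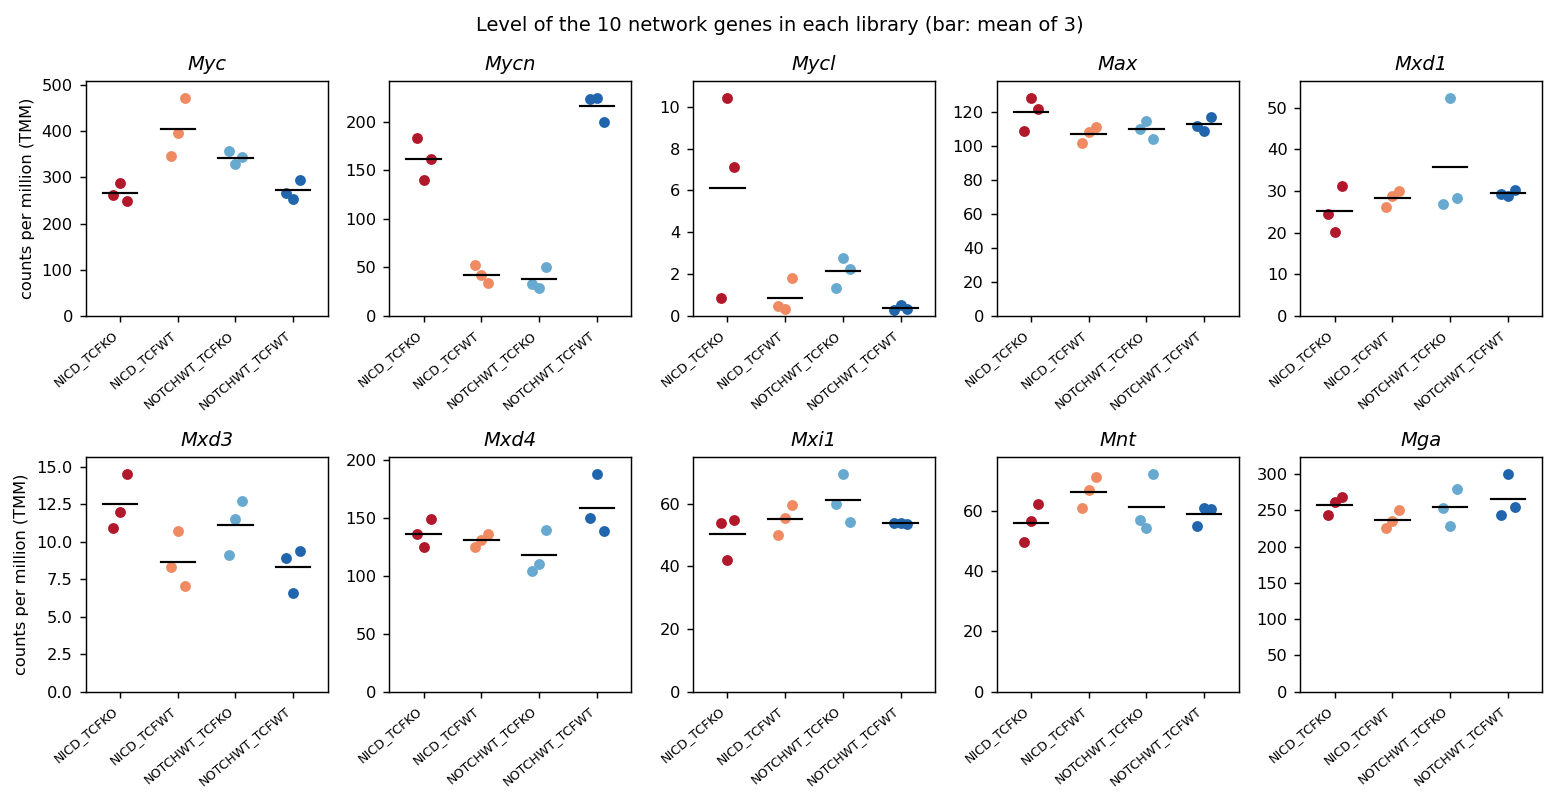
Level of each of the 10 genes in CPM (y axis, linear, from 0) in the 12 libraries, with groups along the x axis, 1 point per library and a bar at the mean of 3. Mycn lies between 140 and 224 CPM in NICD_TCFKO and NOTCHWT_TCFWT and between 28.8 and 52.5 CPM in NICD_TCFWT and NOTCHWT_TCFKO, whereas Max stays between 102 and 128 CPM.

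Mycn (chr12:12936093-12941914, GRCm38, minus strand) encodes N-Myc, a paralogue with the same partners and binding sites as Myc. It had 183, 140 and 162 CPM in NICD_TCFKO, 52.5, 41.9 and 33.4 in NICD_TCFWT, 33.1, 28.8 and 50.9 in NOTCHWT_TCFKO, and 223, 224 and 200 in NOTCHWT_TCFWT. All 6 libraries of NICD_TCFKO and NOTCHWT_TCFWT were above all 6 of the other groups, and NICD_TCFWT and NOTCHWT_TCFKO overlapped. Relative to NOTCHWT_TCFWT, Mycn was 5.06-fold lower in NICD_TCFWT (log2 fold change -2.34 ± 0.22 SE, adjusted p = 0.000102, edgeR quasi-likelihood test with Benjamini-Hochberg adjustment over all genes, as for every adjusted p below). It was 5.73-fold lower in NOTCHWT_TCFKO than in NOTCHWT_TCFWT (log2 -2.52 ± 0.22, adjusted p = 4.95e-05). It was 4.29-fold higher in NICD_TCFKO than in NOTCHWT_TCFKO (log2 2.10 ± 0.22, adjusted p = 0.000187) and 3.79-fold higher than in NICD_TCFWT (log2 1.92 ± 0.22, adjusted p = 0.000599). These 4 differences passed the test in every alternative fit and without each library in turn. NICD_TCFKO and NOTCHWT_TCFWT did not differ past the threshold (log2 -0.42 ± 0.21, adjusted p = 0.288), although their libraries did not overlap, nor did NICD_TCFWT and NOTCHWT_TCFKO (log2 0.18 ± 0.21, adjusted p = 0.655).

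Myc (chr15:61985391-61990374, GRCm38, plus strand) had 262, 288 and 248 CPM in NICD_TCFKO, 346, 396 and 471 in NICD_TCFWT, 357, 328 and 345 in NOTCHWT_TCFKO, and 267, 253 and 295 in NOTCHWT_TCFWT. The order of the means was NICD_TCFWT (404 ± 62.9), NOTCHWT_TCFKO (343 ± 14.9), NOTCHWT_TCFWT (272 ± 21.3) and NICD_TCFKO (266 ± 19.9 CPM, SD, n = 3). NICD_TCFWT and NOTCHWT_TCFKO overlapped, as did NICD_TCFKO and NOTCHWT_TCFWT, and all 6 libraries of the upper groups were above all 6 of the lower. Myc was 1.49-fold higher in NICD_TCFWT than in NOTCHWT_TCFWT (log2 0.57 ± 0.11, adjusted p = 0.00444) and 1.52-fold lower in NICD_TCFKO than in NICD_TCFWT (log2 -0.60 ± 0.11, adjusted p = 0.00604). Both calls held in every alternative and without each library. NICD_TCFKO was lower than NOTCHWT_TCFKO (log2 -0.37 ± 0.11, adjusted p = 0.0381), and NOTCHWT_TCFKO was higher than NOTCHWT_TCFWT (log2 0.34 ± 0.11, adjusted p = 0.0481). The first of these was lost without any 1 of NICD_TCFKO 1, 2 or 3, NICD_TCFWT 2, or NOTCHWT_TCFKO 1 or 2 (adjusted p up to 0.121), and the second without any 1 of NICD_TCFKO 3, NICD_TCFWT 2, or the 6 libraries compared (up to 0.115). NICD_TCFKO and NOTCHWT_TCFWT differed by -0.03 ± 0.11 and NICD_TCFWT and NOTCHWT_TCFKO by 0.24 ± 0.11 (adjusted p = 0.907 and 0.233).

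**Figure D2:**
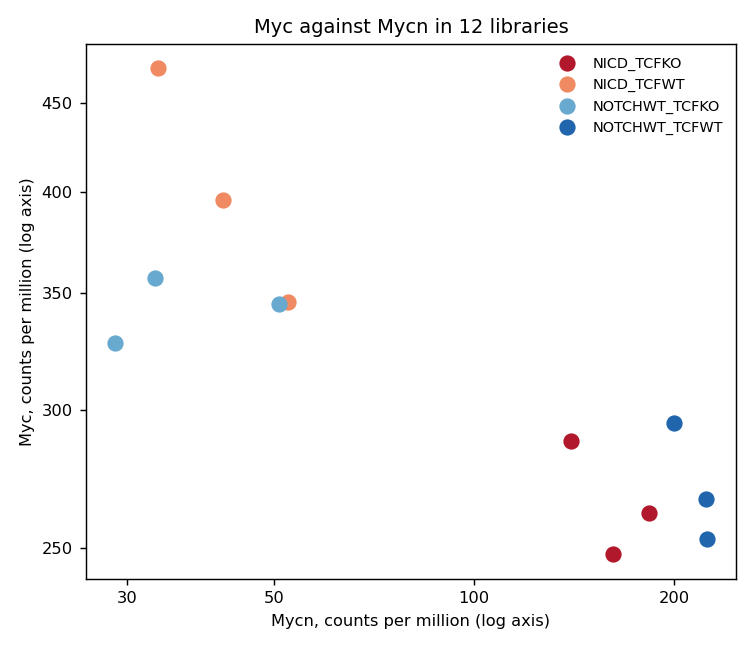
Myc (y axis) against Mycn (x axis), both in CPM on log axes, with 1 point per library coloured by group. The 6 libraries of NICD_TCFWT and NOTCHWT_TCFKO sit at the upper left, with Myc at 328 to 471 and Mycn at 28.8 to 52.5 CPM, and the 6 of NICD_TCFKO and NOTCHWT_TCFWT at the lower right.

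Whether the labelled N1IC difference itself depended on labelled Tcf7 status was tested by the interaction, the difference NICD_TCFKO minus NOTCHWT_TCFKO less the difference NICD_TCFWT minus NOTCHWT_TCFWT. It was 4.44 ± 0.31 on the log2 scale for Mycn (adjusted p = 7.07e-06) and -0.94 ± 0.15 for Myc (adjusted p = 0.00128). Both passed in every alternative and without each library. These were 2 of 10 members, against 27.4% of all genes tested (13.8% positive and 13.5% negative), so that the share of members is not above the background. Across all 4 groups at once, Mycn, Myc and Mycl passed (adjusted p = 4.17e-05, 0.00469 and 0.0203), 3 of 10 members against 29.7% of all genes. The Mycl call across the groups was lost with limma-voom (adjusted p = 0.167) and without NICD_TCFKO 2 or 3 or NOTCHWT_TCFWT 1 or 3 (adjusted p = 0.0522 to 0.0664).

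The ratio of Myc to Mycn within a library does not depend on scaling between libraries. Its log2 value was 0.52, 1.04 and 0.62 in NICD_TCFKO, 2.72, 3.24 and 3.82 in NICD_TCFWT, 3.43, 3.51 and 2.76 in NOTCHWT_TCFKO, and 0.26, 0.18 and 0.56 in NOTCHWT_TCFWT. Myc counts thus exceeded Mycn counts in all 12 libraries, from 1.13 times in NOTCHWT_TCFWT library 2 to 14.1 times in NICD_TCFWT library 3. An exact permutation test over all 369600 divisions of the libraries gave p = 0.0031 for any difference among the groups. Between pairs of groups of 3 the smallest exact p is 0.1, which was reached in 4 of the 6 pairs. The difference in mean log2 ratio was 2.93 for NICD_TCFWT minus NOTCHWT_TCFWT, 2.90 for NOTCHWT_TCFKO minus NOTCHWT_TCFWT, -2.51 for NICD_TCFKO minus NOTCHWT_TCFKO and -2.53 for NICD_TCFKO minus NICD_TCFWT. NICD_TCFKO minus NOTCHWT_TCFWT gave 0.39 (exact p = 0.2), and NICD_TCFWT minus NOTCHWT_TCFKO gave 0.03 (exact p = 1).

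Levels of different genes can be compared only per length, here as CPM per kilobase of annotated exon. On this scale Mycn made up 33.1% ± 4.33 of the summed Myc, Mycn and Mycl level in NICD_TCFKO, 8.21% ± 2.80 in NICD_TCFWT, 8.20% ± 2.25 in NOTCHWT_TCFKO and 39.6% ± 3.31 in NOTCHWT_TCFWT (SD, n = 3 each). The summed level of the family varied less than this share. It was 148 ± 5.40 CPM per kilobase in NICD_TCFKO, 162 ± 20.5 in NICD_TCFWT, 138 ± 7.24 in NOTCHWT_TCFKO and 166 ± 4.07 in NOTCHWT_TCFWT. The family exceeded Max, the partner it needs, by 4.49 ± 0.474 times in NICD_TCFKO, 5.42 ± 0.475 in NICD_TCFWT, 4.54 ± 0.461 in NOTCHWT_TCFKO and 5.30 ± 0.0709 in NOTCHWT_TCFWT. These are levels of RNA, and protein was not measured.

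**Figure D3:**
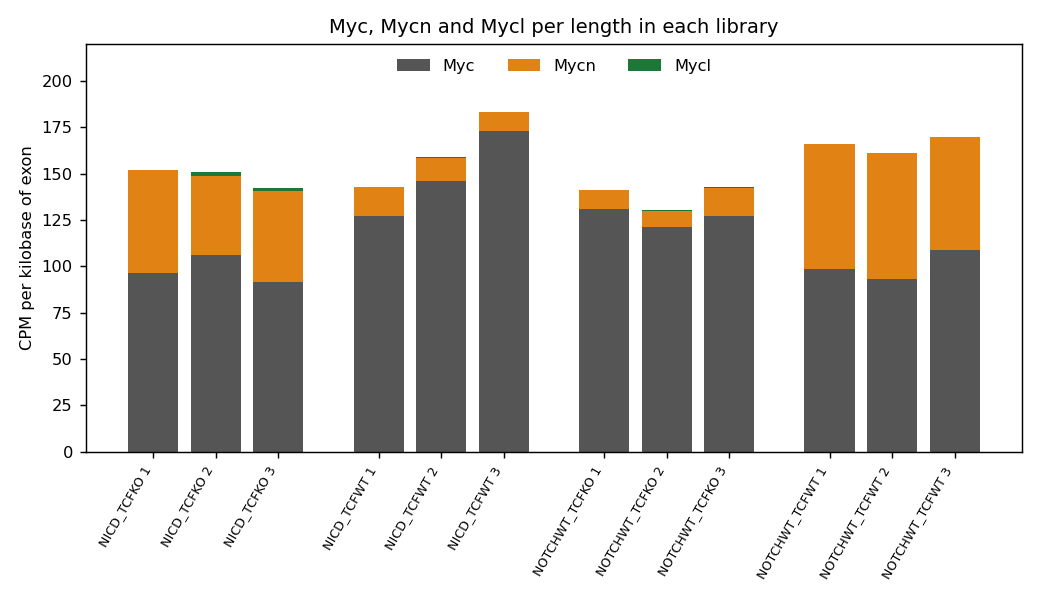
Stacked bars give the CPM per kilobase of exon (y axis, from 0) of Myc, Mycn and Mycl in each of the 12 libraries (x axis). Mycn is a thin band in NICD_TCFWT and NOTCHWT_TCFKO (about 8.2% of the sum) and a wide one in NICD_TCFKO and NOTCHWT_TCFWT (33.1% and 39.6%), and Mycl is barely visible.

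Mycl, the third paralogue (L-Myc), is known in mouse for its expression in dendritic cells. It had 0.875, 10.4 and 7.10 CPM in NICD_TCFKO, 0.461, 0.309 and 1.81 in NICD_TCFWT, 1.35, 2.79 and 2.25 in NOTCHWT_TCFKO, and 0.288, 0.529 and 0.350 in NOTCHWT_TCFWT. Counts were 10 to 16 per library in NOTCHWT_TCFWT and 35, 431 and 285 in NICD_TCFKO. NICD_TCFKO library 1 stood apart from its group and overlapped NICD_TCFWT, while all 3 NICD_TCFKO libraries were above NOTCHWT_TCFWT. Mycl was called between NICD_TCFKO and NOTCHWT_TCFWT (log2 3.98 ± 0.91, adjusted p = 0.0296), where 6.3% of all genes were called (4.01% higher and 2.3% lower). The call was lost without NICD_TCFKO 2 or 3 or any 1 NOTCHWT_TCFWT library (adjusted p = 0.072 to 0.114), and stood at 0.00511 without NICD_TCFKO 1. In 2 other pairs Mycl missed the threshold but was called in some alternatives. The log2 difference was 2.83 ± 0.86 for NICD_TCFKO minus NICD_TCFWT (adjusted p = 0.0554), called without NICD_TCFKO 1 (0.00884) or NICD_TCFWT 3 (0.0348). For NOTCHWT_TCFKO minus NOTCHWT_TCFWT it was 2.45 ± 0.87 (adjusted p = 0.0712), called without NICD_TCFKO 1 (0.0206) or NICD_TCFWT 3 (0.0458). NICD_TCFKO library 1 was also the lowest of its group in Tcf7 (297 CPM, against 896 and 615) and in the summed level of 8 T cell markers (419 CPM, against 1358 and 1041 in the other libraries of the group). Tcf7 is 1 of these 8 markers and makes up most of the sum, so these are not separate observations. The part of T cells in the Mycl values was not tested.

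Max, the shared partner of the other members, had 109, 128 and 122 CPM in NICD_TCFKO, 102, 108 and 111 in NICD_TCFWT, 110, 115 and 104 in NOTCHWT_TCFKO, and 112, 109 and 117 in NOTCHWT_TCFWT. All 4 groups overlapped. No pair of groups passed the test, and the widest difference was 0.16 ± 0.07 on the log2 scale for NICD_TCFKO minus NICD_TCFWT (adjusted p = 0.186).

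The Mxd proteins and Mxi1 are known to rise during differentiation and to oppose Myc at shared sites. Mxd4 was the highest of them in CPM, with 136, 125 and 149 in NICD_TCFKO, 125, 131 and 136 in NICD_TCFWT, 104, 110 and 140 in NOTCHWT_TCFKO, and 150, 188 and 139 in NOTCHWT_TCFWT. It was called only as lower in NOTCHWT_TCFKO than in NOTCHWT_TCFWT (log2 -0.43 ± 0.13, adjusted p = 0.0411), and these groups overlapped by 1 library. That call was lost without any 1 of 7 libraries, NICD_TCFKO 1, NICD_TCFWT 1 or 2, NOTCHWT_TCFKO 1 or 2, and NOTCHWT_TCFWT 1 or 2 (adjusted p = 0.0515 to 0.164). Mxd1 ranged from 20.1 to 31.1 CPM in NICD_TCFKO, from 26.2 to 30.1 in NICD_TCFWT and from 28.7 to 30.2 in NOTCHWT_TCFWT. NOTCHWT_TCFKO had 26.8, 52.2 and 28.4 CPM, so that library 2 stood above the other 11 libraries. The same library was highest in Mxi1 (69.4 CPM, against 59.8 and 54.2 in its group) and in the summed level of 6 erythroid markers (566 CPM, against 90.3 and 53.2). It was also the highest of all libraries in the summed granulocyte and monocyte (8479 CPM), macrophage (434 CPM) and B cell markers (58.9 CPM). It was not the highest in the T cell, megakaryocyte or NK and innate lymphoid sums. The part of any of these cells in Mxd1 and Mxi1 was not tested. Without NOTCHWT_TCFKO library 2, Mxd1 in NOTCHWT_TCFKO minus NOTCHWT_TCFWT was -0.10 on the log2 scale, against 0.29 with it, and neither value was called.

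Mxi1 otherwise lay between 42.0 and 59.8 CPM, and no pair of groups passed for it (the widest, NICD_TCFKO minus NOTCHWT_TCFKO, was -0.28 ± 0.12, adjusted p = 0.119). Mxd3, which is known as the family member of proliferating cells, had the lowest CPM of the Mxd genes. Per length it was not the lowest in NICD_TCFKO, with a mean of 5.27 CPM per kilobase against 3.56 for Mxd1. The means of Mxd3 and Mxd1 were 3.66 and 4.01 in NICD_TCFWT, 4.68 and 5.07 in NOTCHWT_TCFKO, and 3.5 and 4.15 in NOTCHWT_TCFWT. Mxd3 had 10.9, 12 and 14.5 CPM in NICD_TCFKO, 8.31, 10.7 and 7.01 in NICD_TCFWT, 9.09, 11.5 and 12.7 in NOTCHWT_TCFKO, and 8.94, 6.55 and 9.36 in NOTCHWT_TCFWT. The NICD_TCFKO libraries were above the NICD_TCFWT and NOTCHWT_TCFWT libraries without overlap, but the log2 differences of 0.53 ± 0.21 and 0.59 ± 0.21 did not pass (adjusted p = 0.124 and 0.126). Mxd3 shares 105 bases of exon with Prelid1 on the opposite strand. Because strand-specific counting is not stated, reads of the pair cannot be told apart there.

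Mnt, a broadly expressed Max partner that represses Myc targets, had 49.6, 56.8 and 62.4 CPM in NICD_TCFKO, 61.0, 67.1 and 71.4 in NICD_TCFWT, 57.2, 54.5 and 72.3 in NOTCHWT_TCFKO, and 55.0, 61.0 and 60.6 in NOTCHWT_TCFWT. Mga, the large Max partner that also carries a T-box and belongs to the Polycomb complex PRC1.6, had 243 to 269 CPM in NICD_TCFKO, 226 to 250 in NICD_TCFWT, 229 to 279 in NOTCHWT_TCFKO and 243 to 300 in NOTCHWT_TCFWT. For neither gene did a pair of groups pass, with log2 differences of at most 0.24 in size. Per length, the summed level of Mxd1, Mxd3, Mxd4 and Mxi1 averaged 32.3 ± 3.66 CPM per kilobase in NICD_TCFKO, 31.1 ± 1.59 in NICD_TCFWT, 32.6 ± 3.56 in NOTCHWT_TCFKO and 34.2 ± 2.31 in NOTCHWT_TCFWT. That of Mnt and Mga averaged 29.0 ± 2.24, 29.8 ± 1.9, 29.8 ± 3.65 and 30.1 ± 2.53 in the same order. The ranges of the Mnt and Mga sum overlapped between all groups. Those of the Mxd sum overlapped except between NICD_TCFWT (29.3 to 32.1) and NOTCHWT_TCFWT (32.5 to 36.9), and the sums were not tested.

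**Figure D4:**
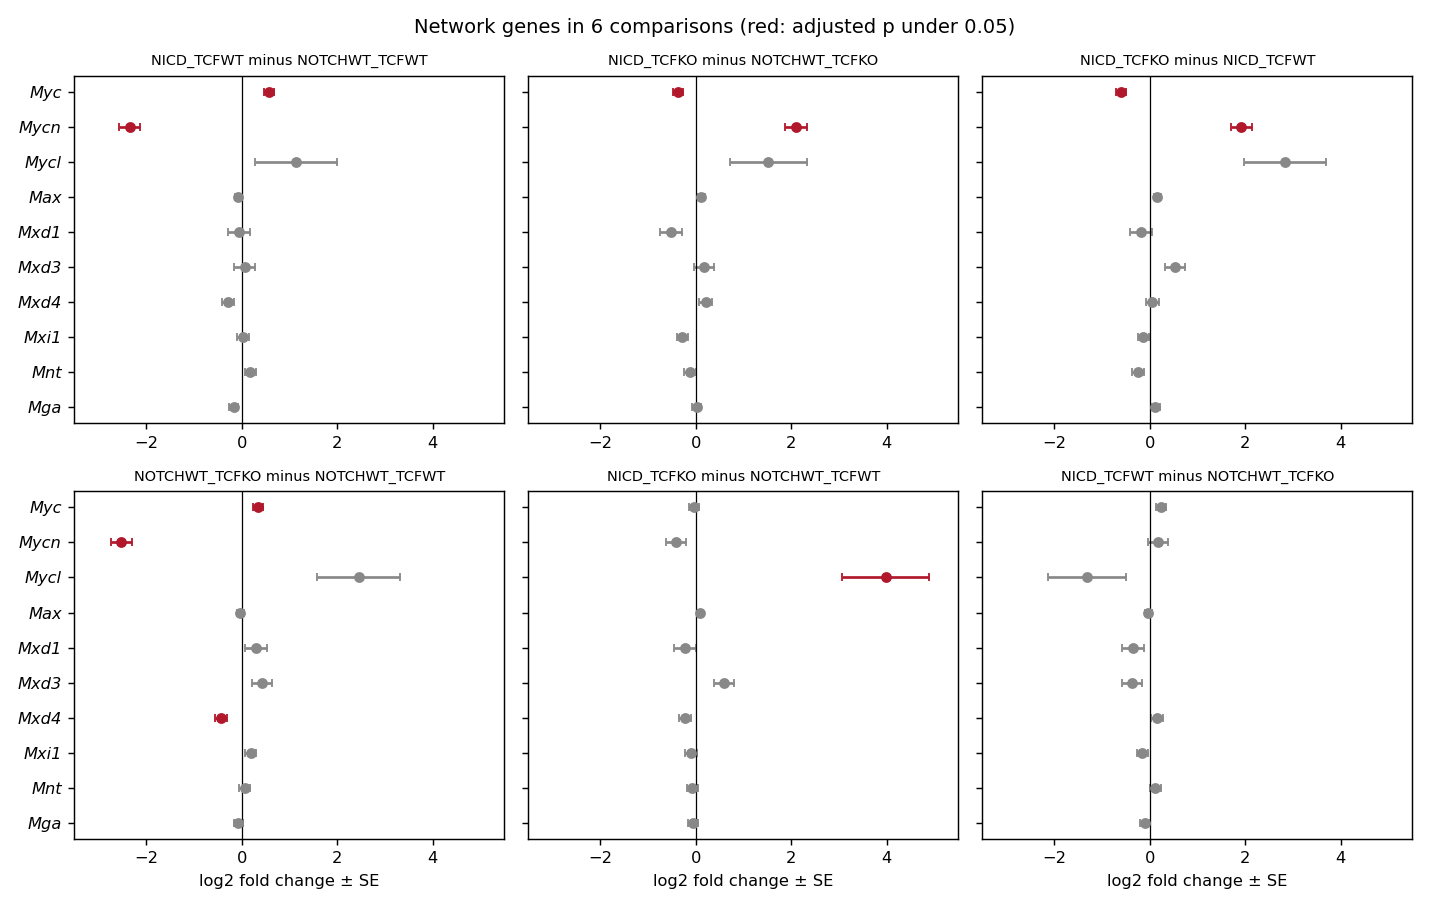
Log2 fold change ± SE (x axis) of the 10 genes (y axis) in the 6 pairwise comparisons, 1 panel each, with red points for an adjusted p under 0.05. Myc and Mycn lie on opposite sides of 0 in the first 4 panels, and Mycl has the widest error bars.

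Counted over the whole network, 1 member rose (Myc) and 1 fell (Mycn) in NICD_TCFWT relative to NOTCHWT_TCFWT, 2 of 10 where 20.4% of all genes were called (10.6% higher and 9.75% lower). In NICD_TCFKO relative to NOTCHWT_TCFKO, Mycn rose and Myc fell, 2 of 10 against 18.4% of all genes (10.3% higher and 8.06% lower). The same 2 genes moved in the same directions relative to NICD_TCFWT, where 12.4% of all genes were called (7.25% higher and 5.15% lower). In NOTCHWT_TCFKO relative to NOTCHWT_TCFWT, Myc rose and Mycn and Mxd4 fell, 3 of 10 against 21.3% (10.8% higher and 10.5% lower). None of the 10 differed between NICD_TCFWT and NOTCHWT_TCFKO, where 2.87% of all genes were called (1.54% higher and 1.34% lower). There 0 had an unadjusted p under 0.05, and DESeq2 and limma-voom called 0 as well. Read against the background, these shares are not a result about the network as a whole. Comparisons that share a group also share its libraries and are not independent of each other.

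Cells of other types were read beside these results, since in bulk libraries fewer cells of a type and less RNA per cell cannot be told apart. The 8 T cell markers summed to 419 to 1358 CPM in NICD_TCFKO, 9.75 to 12.1 in NICD_TCFWT (Cd3g at 0), 7.45 to 20.7 in NOTCHWT_TCFKO and 133 to 164 in NOTCHWT_TCFWT, a sum high in the same 2 groups as Mycn. Tcf7 is among them and averaged 603 CPM in NICD_TCFKO, where the sum averaged 939 CPM. Single markers did not all follow the sum. Relative to NOTCHWT_TCFWT, 2 were called higher and 2 lower in NOTCHWT_TCFKO (median log2 2.51), beside 10.8% and 10.5% of all genes. In NICD_TCFWT 1 was called higher and 1 lower (median -0.84), beside 10.6% and 9.75%. The 8 granulocyte and monocyte markers summed to 343 to 1105 CPM in NICD_TCFKO, 1701 to 6272 in NICD_TCFWT, 1577 to 8479 in NOTCHWT_TCFKO and 61.7 to 122 in NOTCHWT_TCFWT, high in the same 2 groups as Myc. The 6 NK and innate lymphoid markers summed to 367 to 500, 147 to 170, 123 to 164 and 814 to 1528 CPM in that order of groups. The 7 macrophage markers summed to 302 to 434 CPM in NOTCHWT_TCFKO and to at most 18.3 CPM in any other library. The part of these cells in the Myc and Mycn values was not tested. The 6 erythroid markers summed to 18.4 to 566 CPM over all libraries, the 6 megakaryocyte markers to 109 to 404 CPM, and the 6 B cell markers to 22.8 to 58.9 CPM.

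Of 26 ribosome biogenesis genes, among the best known targets that Myc activates, 1 was called in NICD_TCFWT relative to NOTCHWT_TCFWT, beside 20.4% of all genes. This was Ppan, a ribosomal RNA processing factor (log2 0.32 ± 0.09, adjusted p = 0.0325), whose call was lost without any 1 of NICD_TCFWT 1, 2 or 3 or NOTCHWT_TCFWT 1 or 2 (adjusted p up to 0.133). In the other 5 pairs and the interaction 0 of 26 were called by edgeR, with 1 to 4 at an unadjusted p under 0.05, 0 or 1 by DESeq2 and 0 by limma-voom. The median log2 fold change of the list lay between -0.05 and 0.07 in all of them, beside 0.00 to 0.01 over all genes. Of all genes tested, 2.87% to 21.3% were called in these 5 pairs and 27.4% in the interaction. Leaving out 1 library raised the count to at most 1 in NICD_TCFKO minus NICD_TCFWT and in NOTCHWT_TCFKO minus NOTCHWT_TCFWT. In the interaction it rose to at most 2.

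Of 30 Myc-activated genes of growth and metabolism, 5 rose and 1 fell in NICD_TCFWT relative to NOTCHWT_TCFWT (median 0.23), and 4 rose and 2 fell in NOTCHWT_TCFKO relative to NOTCHWT_TCFWT (median 0.15). In NICD_TCFKO, 5 rose and 2 fell relative to NOTCHWT_TCFKO (median 0.01), and 3 rose and 2 fell relative to NICD_TCFWT (median -0.00). These 6, 6, 7 and 5 called genes of 30 stand beside 20.4%, 21.3%, 18.4% and 12.4% of all genes in the same order. The count fell to 3 in NOTCHWT_TCFKO relative to NOTCHWT_TCFWT without NOTCHWT_TCFKO 1 or 2 or NOTCHWT_TCFWT 2, to 3 in NICD_TCFKO relative to NOTCHWT_TCFKO without NICD_TCFKO 2 or NOTCHWT_TCFKO 1, and to between 1 and 3 in NICD_TCFKO relative to NICD_TCFWT without any 1 of the 6 libraries compared. Hk2, the inducible hexokinase of glycolysis, had 46.1, 55.2 and 41.1 CPM in NICD_TCFKO, 65.5, 72.2 and 63.3 in NICD_TCFWT, 71.3, 71.6 and 63.1 in NOTCHWT_TCFKO, and 30, 42.9 and 31.5 in NOTCHWT_TCFWT. Its levels in the 6 libraries of NICD_TCFWT and NOTCHWT_TCFKO exceeded those in the other 6, and its interaction was -1.48 ± 0.20 (adjusted p = 0.000453). Slc1a5, an amino acid transporter, had 174 to 196 CPM in NOTCHWT_TCFKO and 66.1 to 122 CPM in the other 9 libraries. It was lower in NICD_TCFKO than in NOTCHWT_TCFKO (log2 -0.94 ± 0.18, adjusted p = 0.00635) and higher in NOTCHWT_TCFKO than in NOTCHWT_TCFWT (log2 1.14 ± 0.18, adjusted p = 0.00171). Bcat1, an enzyme of branched-chain amino acid metabolism, had 4.78 to 13.8 CPM in both NICD groups, 0.994 to 2.60 in NOTCHWT_TCFKO and 0.140 to 0.663 in NOTCHWT_TCFWT. Its log2 fold change was 4.45 ± 0.64 for NICD_TCFWT minus NOTCHWT_TCFWT (adjusted p = 0.00107).

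**Figure D5:**
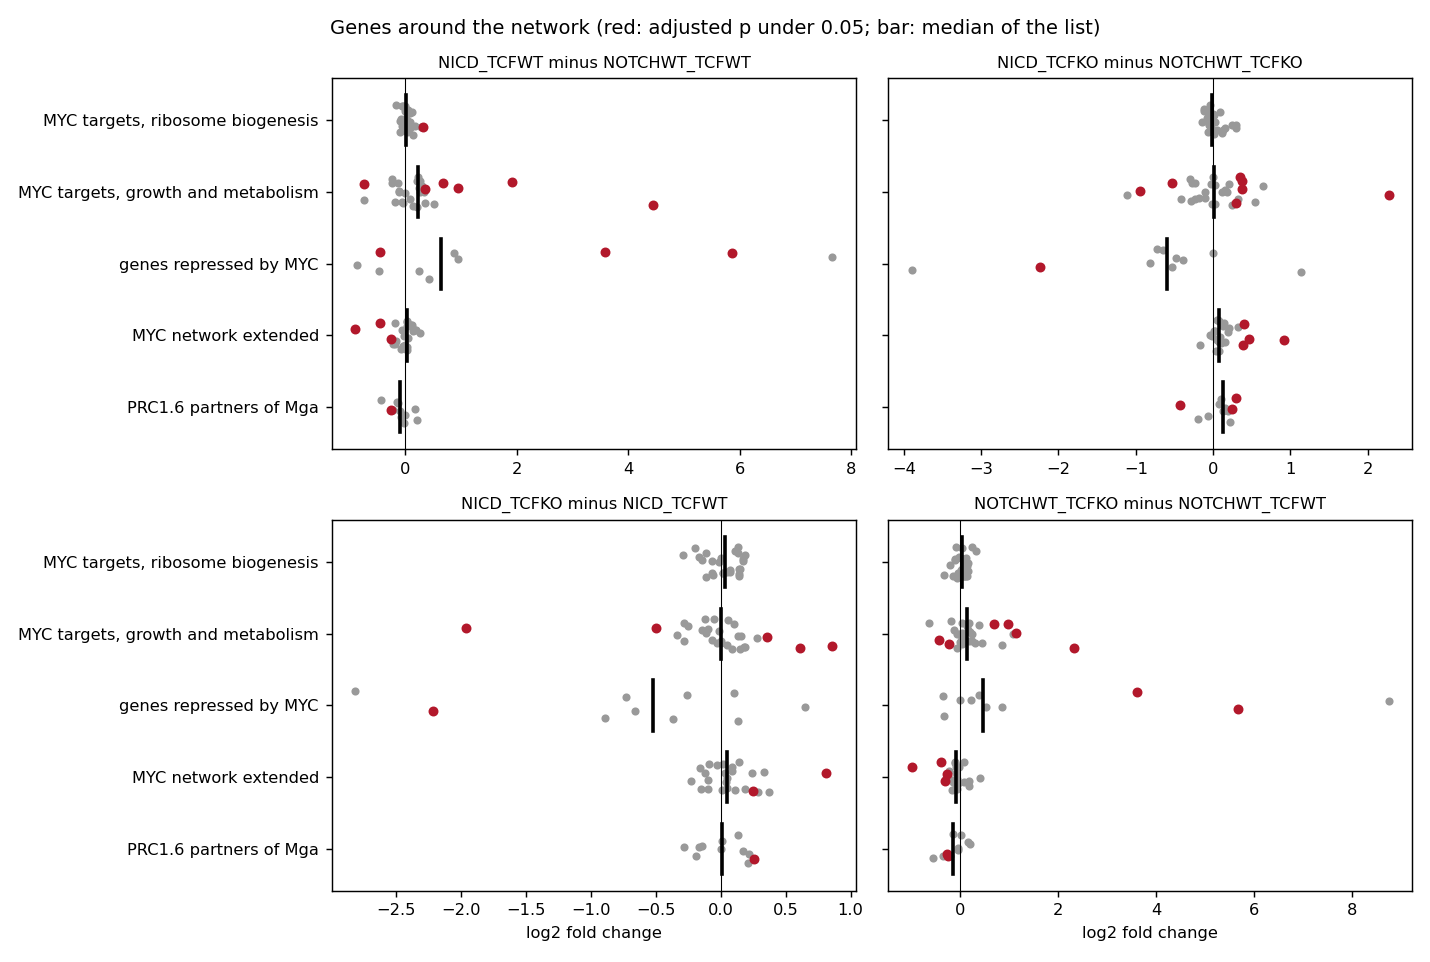
Log2 fold change (x axis, with its own scale in each panel) of each tested gene of 5 lists (y axis) in 4 comparisons, with red points for an adjusted p under 0.05 and a bar at the median of the list. The ribosome biogenesis list is narrow and centred near 0 in all 4 panels, and the genes repressed by MYC have medians of 0.64, -0.59, -0.52 and 0.46.

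Of 11 genes known to be repressed by Myc, 10 were tested. In NICD_TCFWT relative to NOTCHWT_TCFWT 2 rose and 1 fell (median 0.64), and in NOTCHWT_TCFKO relative to NOTCHWT_TCFWT 2 rose (median 0.46). In NICD_TCFKO 1 fell relative to NOTCHWT_TCFKO (median -0.59) and 1 relative to NICD_TCFWT (median -0.52). In the same order, 20.4%, 21.3%, 18.4% and 12.4% of all genes were called. The count of 1 became 2 without NICD_TCFKO 3 or NOTCHWT_TCFKO 3 in both comparisons of NICD_TCFKO, and also without NOTCHWT_TCFKO 1 relative to NOTCHWT_TCFKO. Cdkn1c, a cyclin-dependent kinase inhibitor of quiescent stem cells, had 1.2, 0.799 and 1.07 CPM in NICD_TCFKO, 5.75, 4.40 and 4.09 in NICD_TCFWT, 4.89, 2.55 and 7.06 in NOTCHWT_TCFKO, and 0.519, 0.198 and 0.443 in NOTCHWT_TCFWT. It was thus high in the same groups as Myc, and its interaction was -5.83 ± 0.61 (adjusted p = 7.72e-05). Clu, which encodes the chaperone clusterin, had 1.75 to 5.06 CPM in the other 3 groups and 0.0233 to 0.0865 CPM in NOTCHWT_TCFWT, and it was called in all 3 comparisons with that group (adjusted p of at most 0.000313). The gene that fell, Cdkn1b (p27), had 108, 120 and 97.7 CPM in NICD_TCFWT against 144, 176 and 125 in NOTCHWT_TCFWT (adjusted p = 0.0368). Without any 1 of 6 libraries its adjusted p reached 0.056 to 0.153.

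Cofactors and regulators of Myc proteins formed a list of 26 genes, of which 25 were tested. None rose and 3 fell in NICD_TCFWT relative to NOTCHWT_TCFWT, and none rose and 4 fell in NOTCHWT_TCFKO relative to NOTCHWT_TCFWT. In NICD_TCFKO 4 rose and none fell relative to NOTCHWT_TCFKO, and 2 rose and none fell relative to NICD_TCFWT. In the same order, 20.4%, 21.3%, 18.4% and 12.4% of all genes were called. The count was 1 in NICD_TCFWT relative to NOTCHWT_TCFWT without NICD_TCFWT 1. In NOTCHWT_TCFKO relative to NOTCHWT_TCFWT it was 2 without NOTCHWT_TCFKO 1 or 2 or NOTCHWT_TCFWT 2, and 7 without NOTCHWT_TCFKO 3. In NICD_TCFKO relative to NICD_TCFWT it was 4 without NICD_TCFKO 1, and 1 without NICD_TCFKO 2 or 3, any NICD_TCFWT library or NOTCHWT_TCFWT 1. Bin1, a Myc-interacting adaptor, had 95.9, 97.8 and 85.4 CPM in NICD_TCFKO, 47.1, 62.4 and 49.0 in NICD_TCFWT, 43.6, 44.2 and 59.9 in NOTCHWT_TCFKO, and 109, 97.6 and 87.5 in NOTCHWT_TCFWT. It was called in all 4 of these pairs, with an interaction of 1.81 ± 0.21 (adjusted p = 0.000139), and its groups separated like those of Mycn. Kat2a (GCN5), an acetyltransferase recruited by Myc, had 131 to 157 CPM in NOTCHWT_TCFKO, against 181 to 221 CPM in the other 9 libraries. It was higher in NICD_TCFKO than in NOTCHWT_TCFKO (log2 0.47 ± 0.08, adjusted p = 0.00328) and lower in NOTCHWT_TCFKO than in NOTCHWT_TCFWT (log2 -0.38 ± 0.08, adjusted p = 0.00727). Of the 11 PRC1.6 partners of Mga, at most 3 were called in a pair, NICD_TCFKO relative to NOTCHWT_TCFKO, where 18.4% of all genes were. That count fell to 1 without NICD_TCFKO 2 and to 0 without NICD_TCFKO 3 or NOTCHWT_TCFKO 1 or 2. Rnf2, the ubiquitin ligase of the complex, had an interaction of 0.41 ± 0.10 (adjusted p = 0.0112).

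Of 20 cell cycle genes 0 were called in NICD_TCFWT relative to NOTCHWT_TCFWT, with 1 at an unadjusted p under 0.05 and 0 by DESeq2 and limma-voom. NICD_TCFKO had 3 higher and 1 lower relative to NOTCHWT_TCFKO and 3 higher relative to NICD_TCFWT, and NOTCHWT_TCFKO had 2 higher relative to NOTCHWT_TCFWT. In the order of these 4 comparisons, 20.4%, 18.4%, 12.4% and 21.3% of all genes were called. Leaving out NICD_TCFWT 3 gave 1 in the first. In NICD_TCFKO relative to NOTCHWT_TCFKO the count was 2 without NICD_TCFKO 1 or 2 or NOTCHWT_TCFKO 1. Relative to NICD_TCFWT it was 1 without NICD_TCFKO 2 or NICD_TCFWT 1 or 2, and 0 without NICD_TCFWT 3. In NOTCHWT_TCFKO relative to NOTCHWT_TCFWT it was 0 without NOTCHWT_TCFKO 1 or 2 or NOTCHWT_TCFWT 1, 1 without NOTCHWT_TCFWT 2, and 7 without NOTCHWT_TCFKO 3. The 8 Notch response genes were all higher in NICD_TCFKO than in NOTCHWT_TCFKO and than in NICD_TCFWT, and 6 were lower both in NICD_TCFWT and in NOTCHWT_TCFKO than in NOTCHWT_TCFWT. Their summed level was 1418 to 2626 CPM in NICD_TCFKO, 168 to 214 in NICD_TCFWT (Ptcra at 0), 124 to 207 in NOTCHWT_TCFKO (Ptcra at 0) and 997 to 1206 in NOTCHWT_TCFWT. This sum was high in the same groups as Mycn, but single genes did not all follow it. Ptcra had 1.73, 9.01 and 14.8 CPM in NICD_TCFKO and counts of only 0, 1 and 0 in NOTCHWT_TCFWT. Relative to NOTCHWT_TCFWT, 2 of the 8 were called higher and 1 lower in NICD_TCFKO, beside 4.01% and 2.3% of all genes.

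The genes whose level over the 12 libraries was most like that of Mycn, among 10261 genes with a mean of at least 5 CPM, were Lax1, Serpinb6b, Dnajc6, Vash1 and Nrarp, with Pearson r of log2 CPM of 0.985 to 0.989. Nrarp, a feedback regulator of Notch signalling, averaged 68.8 ± 8.07 CPM in NICD_TCFKO, 6.15 ± 0.865 in NICD_TCFWT, 5.24 ± 0.942 in NOTCHWT_TCFKO and 114 ± 6.32 in NOTCHWT_TCFWT. Those most like Myc were Abhd11, Mcrip2, Snd1, Nfe2l1 and Rbfa, with r of 0.924 to 0.943. Snd1, a transcriptional and RNA-binding coactivator, averaged 270 CPM in NICD_TCFKO, 337 in NICD_TCFWT, 323 in NOTCHWT_TCFKO and 266 in NOTCHWT_TCFWT. These r describe likeness over libraries that fall into 2 clusters and share their depth and makeup, and no test was made of them.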

How the data were processed

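RNA of 12 libraries was read as single-end reads of 75 nt on a NextSeq instrument, per the labels' protocols. Per the submitters' processing notes, the upstream tools were HISAT2, featureCounts (version 1.4.4), cutadapt (1.9.1), bcl2fastq (2.17), limma and edgeR (3.28.0), their roles not stated, and the build was mm10. The deposited files of the authors hold raw counts per Ensembl gene, identical to the table deposited for the whole series. Also deposited by the authors are log2 values of 15759 genes. Within each library they equal log2 of the count plus 0.5, shifted by a constant that was not checked against library size. These values served only as an alternative for the ratio of Myc to Mycn.

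Everything else was computed from the counts. Symbols, lengths and coordinates came from GENCODE M21, which matched 37693 of 39017 gene IDs. Of these genes 15330 had no count. After filterByExpr 16024 genes were tested, and they held 99.91% or more of a library's counts. Library sizes were scaled by TMM before CPM were taken. One quasi-likelihood model with 4 group means was fitted to all 12 libraries in edgeR 4.0.16 (R 4.3.3, robust dispersion, common biological coefficient of variation 0.3) and checked on simulated data. Tests were two-sided, and a gene was called at p under 0.05 after Benjamini-Hochberg adjustment across the whole table. The ratio used log2 of counts with 0.5 added, and its exact permutation test covered all divisions into groups of 3. The precision is that of 30453271 to 43790674 counts per library. Replicates of a group differed by more than sampling noise in every pair (chi-square per degree of freedom of at least 18.7), so none was merged.

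The members, gene lists and tests were chosen with earlier results of these data known. The genes named are the 10 members, Tcf7 and Notch1, for each list and contrast up to 3 called genes of smallest p, and the 5 genes most alike to Myc and to Mycn by Pearson r. The members of marker and cell cycle lists are given as counts or sums. One gene that this rule names is not reported here. Alternatives were DESeq2 1.42.0, limma-voom (limma 3.58.1), RLE scaling, a minimum of 1 CPM in 3 or more samples, testing without any filter, a fit to just the groups compared, the replicate number as a block, a covariate of summed Y-linked transcripts, and each library left out.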

Additional observations from a re-analysis of the deposited data

Results flagged for a closer look

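The labelled N1IC difference of Mycn had opposite signs by labelled Tcf7 status. It was 2.10 ± 0.22 on the log2 scale for NICD_TCFKO minus NOTCHWT_TCFKO and -2.34 ± 0.22 for NICD_TCFWT minus NOTCHWT_TCFWT, and the test of the difference between them gave 4.44 ± 0.31 (edgeR, adjusted p = 7.07e-06). The same holds with the sign turned for Myc, with -0.37 ± 0.11 and 0.57 ± 0.11 and a tested difference of -0.94 ± 0.15 (edgeR, adjusted p = 0.00128). Both signs are those between libraries as labelled. Tcf7 and the Notch response genes go against the labels: the 8 Notch response genes summed to 168 to 214 CPM in NICD_TCFWT and 997 to 1206 CPM in NOTCHWT_TCFWT. Whether groups were exchanged was not tested, and the signs rest on the labels.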

How the results depend on the processing

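All 4 called Mycn differences, both called Myc differences that involve NICD_TCFWT, both interactions of Myc and Mycn and the ratio of Myc to Mycn kept their direction and their side of the threshold in every alternative run. The ratio of Myc to Mycn gave exact permutation p of 0.0019 to 0.0047 without each library in turn, with a spread of group means of 2.85 to 3.19, and 0.019 when libraries were permuted within replicate numbers as a block. Under the replicate block, Myc in NICD_TCFKO minus NOTCHWT_TCFKO (edgeR adjusted p = 0.0583) and in NOTCHWT_TCFKO minus NOTCHWT_TCFWT (0.0657) and Mxd4 in NOTCHWT_TCFKO minus NOTCHWT_TCFWT (0.0551) were no longer called. The samples share only a number: deviations of same-numbered libraries correlated above 0.1 in 6 of 18 pairs, and 7 of 12 libraries correlated best with their own number. The block gave 736 to 3954 called genes in the contrasts and the interaction other than NICD_TCFWT minus NOTCHWT_TCFKO. Mxd4 in that pair was also lost with no filter on low counts (adjusted p = 0.0512), with the Y-linked covariate (0.0555) and with only the groups of the contrast (0.0982). The Mycl call was lost with limma-voom (0.162) and with only the groups of the contrast (0.0724). Summed Y-linked transcripts ranged from 1.02 to 356 CPM of total counts between libraries, and the main model held no term for them or for sex. With the Y-linked covariate Mycn was called as lower in NICD_TCFKO than in NOTCHWT_TCFWT (log2 -0.54, edgeR adjusted p = 0.0369). Mycl was called in addition by DESeq2 in NICD_TCFKO minus NICD_TCFWT (0.00346) and NOTCHWT_TCFKO minus NOTCHWT_TCFWT (0.0116), and with the Y-linked covariate in both (0.035 and 0.00234) and in NICD_TCFWT minus NOTCHWT_TCFWT (0.0493). With only the groups of the contrast it was called in NOTCHWT_TCFKO minus NOTCHWT_TCFWT (0.00875). The sign turned with the Y-linked covariate for the Mycl interaction (-1.51), for Max in NICD_TCFWT minus NOTCHWT_TCFWT (0.01) and NOTCHWT_TCFKO minus NOTCHWT_TCFWT (0.04), and for Mxd1 in NICD_TCFWT minus NOTCHWT_TCFWT (0.16), all uncalled. The number of genes called in the whole table moved by over 1.5 times with only the groups of the contrast in NICD_TCFKO minus NOTCHWT_TCFKO (1238, against 2942) and NICD_TCFKO minus NOTCHWT_TCFWT (538, against 1010). It moved so with DESeq2 in NICD_TCFKO minus NICD_TCFWT (3186, against 1986), NICD_TCFKO minus NOTCHWT_TCFWT (2025) and NICD_TCFWT minus NOTCHWT_TCFKO (1655, against 460). With the Y-linked covariate it was 1521 in NICD_TCFKO minus NOTCHWT_TCFWT and 807 in NICD_TCFWT minus NOTCHWT_TCFKO, and with the replicate block 291 in the second. Without each library in turn it was 2024 to 3644 in NICD_TCFWT minus NOTCHWT_TCFWT, 1610 to 3302 in NICD_TCFKO minus NOTCHWT_TCFKO, 917 to 2688 in NICD_TCFKO minus NICD_TCFWT, 2201 to 3847 in NOTCHWT_TCFKO minus NOTCHWT_TCFWT, 368 to 1285 in NICD_TCFKO minus NOTCHWT_TCFWT and 161 to 2065 in NICD_TCFWT minus NOTCHWT_TCFKO, the highest without NOTCHWT_TCFKO 3. The cause was not tested. Some uncalled log2 differences crossed 0 without 1 library. For Myc it was -0.09 to 0.03 in NICD_TCFKO minus NOTCHWT_TCFWT. For Mycn it was -0.01 to 0.44 in NICD_TCFWT minus NOTCHWT_TCFKO. For Mycl it was -0.02 to 1.54 in NICD_TCFWT minus NOTCHWT_TCFWT, -0.23 to 1.54 in the interaction. For Max it was -0.08 to 0.04 in NOTCHWT_TCFKO minus NOTCHWT_TCFWT, -0.10 to 0.00 in NICD_TCFWT minus NOTCHWT_TCFKO. For Mxd1 it was -0.11 to 0.01 in NICD_TCFWT minus NOTCHWT_TCFWT, -0.10 to 0.48 in NOTCHWT_TCFKO minus NOTCHWT_TCFWT, -0.52 to 0.04 in NICD_TCFWT minus NOTCHWT_TCFKO. For Mxd3 it was -0.13 to 0.18 in NICD_TCFWT minus NOTCHWT_TCFWT, -0.04 to 0.29 in the interaction. For Mxi1 it was -0.04 to 0.11 in NICD_TCFWT minus NOTCHWT_TCFWT, -0.17 to 0.01 in NICD_TCFKO minus NOTCHWT_TCFWT. For Mnt it was -0.05 to 0.13 in NOTCHWT_TCFKO minus NOTCHWT_TCFWT, -0.15 to 0.02 in NICD_TCFKO minus NOTCHWT_TCFWT. For Mga it was -0.04 to 0.07 in NICD_TCFKO minus NOTCHWT_TCFKO, -0.12 to 0.05 in NOTCHWT_TCFKO minus NOTCHWT_TCFWT, -0.10 to 0.06 in NICD_TCFKO minus NOTCHWT_TCFWT. Mycl had the lowest counts of the members, 10 to 16 per library in NOTCHWT_TCFWT, where its relative counting error is highest.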
